A study of Mus musculus with 2 samples.

Results

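Lysosome and autophagy genes were examined in the odontogenic epithelial cell line mDE6, from mouse, after 6 h with CHIR99021. The set comprised 41 genes named by symbol, listed for their place in the lysosome or in autophagy, among 37074 gene names on the array. The rule for membership uses no measured value, but the list was put together with earlier results of these data known. All 41 were on the array, through 89 probes, and 40 had at least 1 probe well above background on either array and were tested, among 18837 tested gene names. The remaining gene, Ctss, which encodes cathepsin S, had a single probe, which failed that filter on both arrays.

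The experiment held 2 arrays. One array carried RNA from control cells, which the label describes as DMSO treated and the study's methods as untreated, and the other carried RNA from cells given CHIR99021, an inhibitor of GSK-3 that activates the β-catenin pathway. The label gives the dose as 5 mM and the methods as 5 μM. Both arrays came from the 6 h time point, the cells carried no transgene named in the labels, and each condition was 1 sample of 1 cell line, so no difference below has a replicate check and no p-value was computed.

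Lysosomes digest material delivered by endocytosis or by autophagy, in which a double membrane closes around cytoplasm and then fuses with the lysosome. Acid hydrolases do the digestion in a lumen that the V-ATPase, a proton pump, keeps acidic. The transcription factors TFEB, TFE3 and MITF bind an E-box in the promoters of many of these genes, and GSK-3 is among the kinases that phosphorylate TFEB. In autophagy, the ULK complex starts the membrane, WIPI proteins read its phosphoinositide lipid, the ATG12 system attaches ATG8 proteins (the LC3 and GABARAP families) to it, and cargo receptors such as p62 bind them.

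Values below are spot signals as quantified on each array, in arbitrary units after background subtraction. Ratios are CHIR99021 over control after each array was divided by the 75th percentile of its signals, which was 486.7 in control cells and 469.2 with CHIR99021. A gene was represented by its tested probe with the highest mean signal. To be called lower, a gene needed a ratio of 0.66 or less with a Z-score no higher than -2.0. To be called higher, it needed 1.5 or more with a Z-score of 2.0 or more. The Z-score sets the log2 ratio against the 500 probes nearest in mean signal. Ratios of 1.2-fold or more in either direction, 0.263 on the log2 scale, were counted as a wider description. The error given with a log2 ratio is the scanner software's own model, which assumes a 10% error on each array, and it does not include variation between cultures.

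The arrays differed in ways that bear on what follows. Spots well above background made up 49.8% in control cells and 48.3% with CHIR99021, and 0 spots were saturated. Repeated spots of the same probe agreed closely, with a median SD of the log2 ratio of 0.03 over 278 probes. Wnt feedback genes, which β-catenin is known to induce, served as the check of the treatment: 7 of 8 were tested. The 5 that were well above background on both arrays all had ratios of 1.2-fold or more above 1, beside 21.5% of the 16886 genes measured on both, and their median log2 ratio was 0.67. By the criteria given above, 2 of them, Lef1 and Rnf43, were higher, beside 1.77% of those genes, and Rnf43 only just passed the Z-score. Axin2 and Nkd1 entered the test only through the CHIR99021 array, at least 1.66-fold and 25.8-fold higher there, and give no support to that count. The Nkd1 probe lay in row 368 of 384, and its pixels varied by 40.1% of their mean on the CHIR99021 array. Around it lay 12 on/off spots, which were well above background on 1 array only and over 4-fold apart. The epithelial label was met only in part. Trp63, a basal epithelial transcription factor, was well above background on both arrays, but Cdh1, Epcam and Krt8 were not on either, nor were the enamel matrix genes Ambn, Amelx and Enam. All 6 mesenchymal markers were well above background on both arrays, with Vim at 52302 in control cells. Of the 7 macrophage and osteoclast markers, which belong to cells rich in lysosomes, 5 were tested. Csf1r (640 in control, 626 with CHIR99021) was well above background on both arrays. The probes of Itgam disagreed: 1 passed that level on both arrays (6351 and 5274), while the other fell short of it on both (11.2 and 13.4). Ptprc had 1 probe well above background (1709 and 1764) and 6 that were not. Calcr was below that level on both arrays, and the share of other cells in these cultures was not tested.

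As a whole, the set differed little between the arrays. The median log2 ratio of the 40 tested members was 0.06, against 0.02 for all tested genes. One member, Wipi1, was lower by the criteria, beside 3.22% of all tested genes, and one, Neu1, was higher, beside 2.63%. At least 1.2-fold higher were 8 members, 20.0% of those tested against 23.2% of all tested genes, and 7 were at least 1.2-fold lower, 17.5% against 22.2%. The members were mostly strongly expressed, however, and dim genes scatter more. Among the 9904 genes measured on both arrays at or over the 75th percentile signal, 20.8% were at least 1.2-fold higher and 12.9% at least 1.2-fold lower, and among the 37 members at that level the share was 18.9% in each direction. These counts lie near their backgrounds. What stood out was the distribution over roles, described next and shown in the plot of log2 ratios by role. The counts by role and list stand beside the shares of all tested genes, which include dim ones. For bright genes the closer background is 20.8% higher and 12.9% lower.

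**Figure D1:**
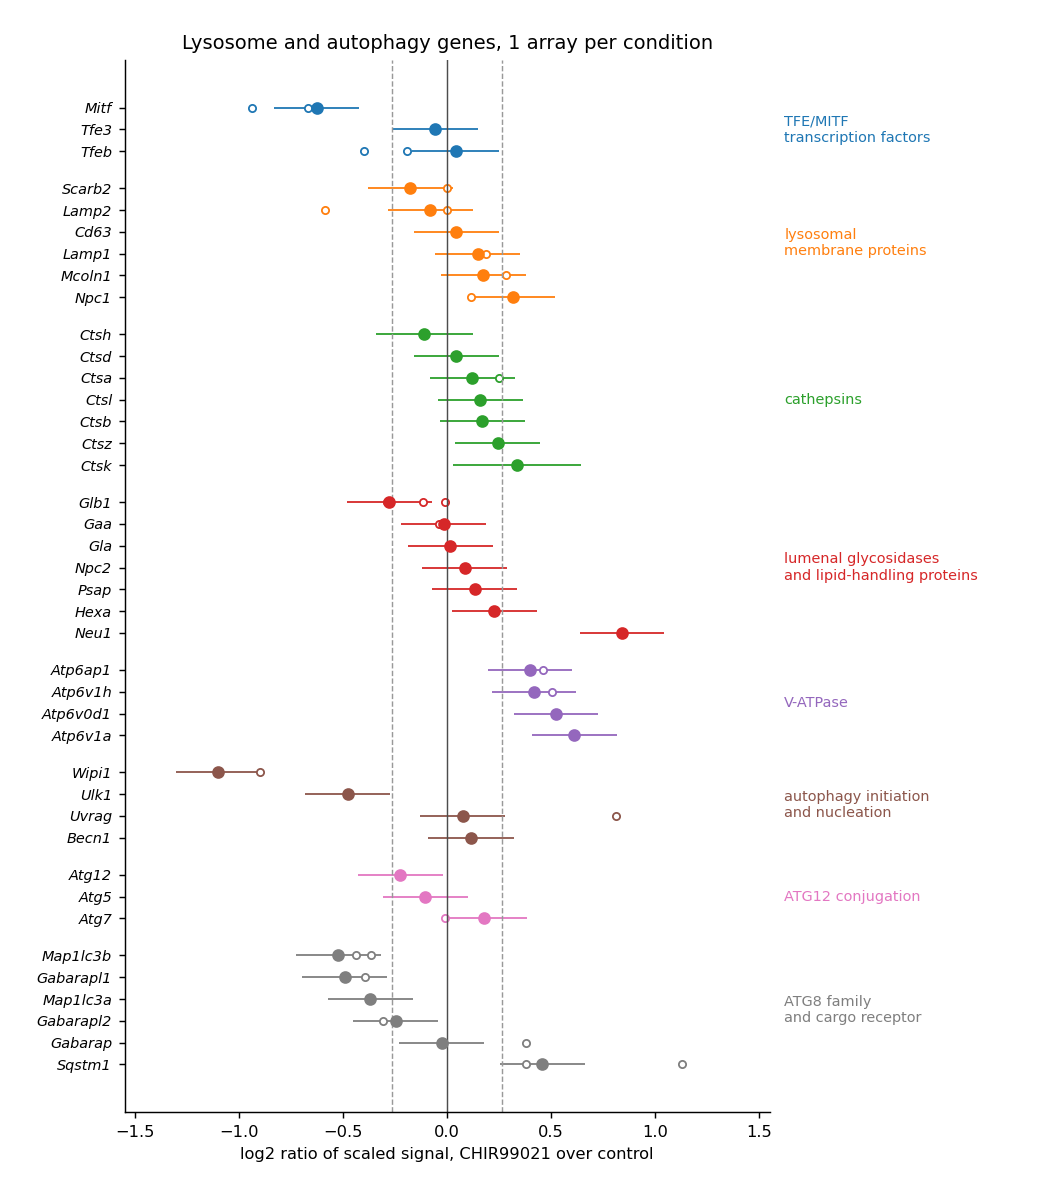
Log2 ratio (CHIR99021 over control) of the 40 tested members, grouped by role. Filled points with bars are the probe with the highest signal and its model error, open points are the gene's other probes measured on both arrays (some lie under a filled point), and dashed lines mark 1.2-fold; the 4 V-ATPase genes lie to the right of the dashed line and 3 of the 5 ATG8 genes to the left.

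The TFE/MITF factors themselves were split. Mitf, the family's melanocyte and osteoclast regulator, gave 777 in control cells and 485 with CHIR99021, a ratio of 0.65 (log2 ratio -0.63, error 0.21, Z-score -1.67). Its other 2 measured probes gave 0.63 and 0.52, so all 3 were lower, although the ratio of the brightest passed the limit of 0.66 without reaching the Z-score. That brightest probe lay in row 370 of 384 with 7 on/off spots around it, against a 90th percentile of 5 in the later rows. The other 2 measured probes had 0 such spots around them, and the part of place on the array was not tested. Tfe3 was the brightest of the 3 genes, at 6780 in control cells, and its ratio was 0.96. Tfeb was dim, with 247 in control cells and a ratio of 1.03, and its other 2 probes gave 0.76 and 0.87, so no direction can be read for Tfeb.

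The E-box that these factors bind was looked for in the 250 bases before each annotated start of the members. RefSeq promoter sequences of GRCm38.p6 were used, where 34 of the 41 members had an entry. A gene could have more than 1 entry (32851 for 27025 genes), and counted as holding a motif where any of its entries did. The hexamer CACGTG, a palindrome that reads alike on both strands, was present in 11 of these 34 genes (32.4%), against 6.86% of the 27025 genes in the same table. Its extended form TCACGTGA, also a palindrome and always counted within the hexamer, was present in 5 of 34 (14.7%), against 0.907% of genes. The lysosomal lists in use today were drawn up in part from this motif, so the excess says nothing about these cells. The sites of the 5 genes with the octamer are shown because they are the closest matches to the TFEB site, 30 bases each with the motif in capitals, written 5′ to 3′ along the gene:
Atp6v1a, chr16:44139373-44139402, minus strand: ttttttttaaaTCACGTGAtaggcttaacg
Ctsa, chr2:164833743-164833772, plus strand: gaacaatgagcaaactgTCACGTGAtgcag
Ctsd, chr7:142387908-142387937, minus strand: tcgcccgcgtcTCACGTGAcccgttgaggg
Mcoln1, chr8:3500462-3500491, plus strand: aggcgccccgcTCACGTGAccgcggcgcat
Gla, chrX:134601215-134601244, minus strand: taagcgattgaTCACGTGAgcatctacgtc
Gla, chrX:134601182-134601211, minus strand: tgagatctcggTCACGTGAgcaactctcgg

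Lamp1 is shown as well because it held the most hexamers of any member, 4 within 60 bases at chr8:13159096-13159155 on the plus strand, none of them extended to the octamer:
Lamp1: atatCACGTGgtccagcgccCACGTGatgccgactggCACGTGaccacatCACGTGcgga

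Of the 5 octamer genes, Atp6v1a had a ratio of 1.53, Mcoln1 1.13, Ctsa 1.09, Ctsd 1.03 and Gla 1.01, and Lamp1 had 1.11. Most of these lay close to 1, and Ctsd (0.96) and Gla (0.97) lay on the other side of 1 with quantile normalization. The 11 genes with the hexamer had a median log2 ratio of 0.12, and the 22 tested members with an entry and no hexamer had 0.04, and the difference between these medians was not tested. Among the hexamer genes, Glb1 (0.82), Atg5 (0.93) and Gaa (0.99) had ratios below 1. Of the 15 members at least 1.2-fold apart between the arrays, 12 had a promoter entry, and the hexamer was present in 2 of these, Atp6v1a on the higher side and Glb1 on the lower.

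**Figure D2:**
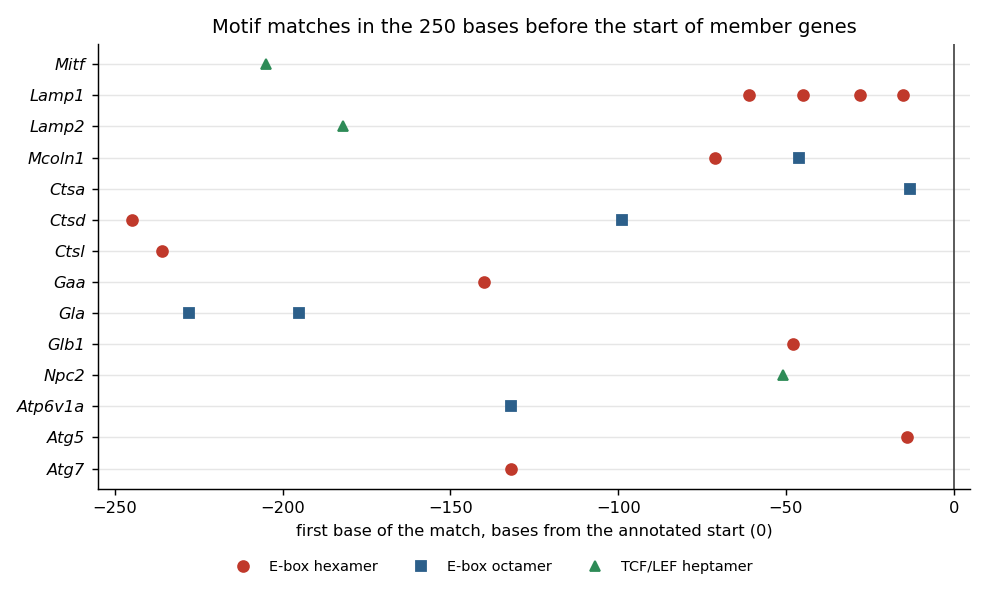
Position of each motif match in the 250 bases before an annotated start, for the 14 members with a match. Circles mark the E-box hexamer outside an octamer, squares the octamer and triangles the TCF/LEF heptamer, and the x axis gives the first base of the match in bases from the start; Lamp1 held 4 hexamers and Gla 2 octamers.

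The heptamer CTTTGAT, the core bound by TCF/LEF factors with β-catenin, was searched on both strands of the same windows, and does not overlap the E-box. It was present in 3 of 34 members (8.82%), Mitf, Lamp2 and Npc2, against 3.72% of genes. The Mitf window is shown because Mitf was among the lower members, at chr6:97991567-97991596 on the plus strand, with the heptamer in capitals:
Mitf: agtgagcttgaCTTTGATagctcatccttt

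The plot of motif positions gives the distances. Mitf had a ratio of 0.65, Lamp2 0.94 and Npc2 1.06. A letter match is not a bound site, and no binding was measured in this series. Each window lies before an annotated start, and which start these cells used was not tested.

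The V-ATPase genes were the one role in which every member was at least 1.2-fold higher, 4 of 4 beside 23.2% of all tested genes. Atp6v1a encodes the catalytic A subunit of the cytosolic V1 sector. Its signal was 5069 in control cells and 7463 with CHIR99021 (chr16:44085826-44085885 in mm9, minus strand), a ratio of 1.53 with a log2 ratio of 0.61, error 0.20 and Z-score 1.71. The Z-score did not reach the limit, so Atp6v1a was not higher by the criteria. Atp6v0d1, the d subunit that joins the membrane sector to the stalk, gave 3417 and 4735, a ratio of 1.44. Atp6v1h, a regulatory V1 subunit, gave 4314 and 5555, a ratio of 1.34, and its other measured probe gave 1.42. Atp6ap1, an accessory protein of the pump, gave 1882 and 2391, a ratio of 1.32, and 1.38 on its other probe. The CHIR99021 array was thus the higher one for each measured probe of these genes.

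A further Atp6v1a probe was not well above background in control cells and gave 160 with CHIR99021, at least 7.03-fold higher. That spot lay in row 375 of 384, its pixels varied by 46.9% of their mean on the CHIR99021 array, and 5 spots within 3 rows and columns of it were also well above background on 1 array only and over 4-fold apart. Such on/off spots were more common in the later rows: the median number near a tested probe was 0 in rows up to 192 and 1 beyond them. Their part in this value was not tested, and the count of 4 does not rest on that probe.

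Among the 12 other V-ATPase genes, 6 were at least 1.2-fold higher and 0 lower, with a median log2 ratio of 0.28. Atp6v1c1, the C subunit of V1, had the highest ratio of them, 1.49, and Atp6v1f the lowest, 0.97. Over all 16 genes, 15 had a ratio above 1, 10 were at least 1.2-fold higher (62.5% beside 23.2% of all tested genes) and 0 met the criteria. With 7 scalings and background corrections the number at 1.2-fold higher was 9 or 10, and 0 were lower under any of them.

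**Figure D3:**
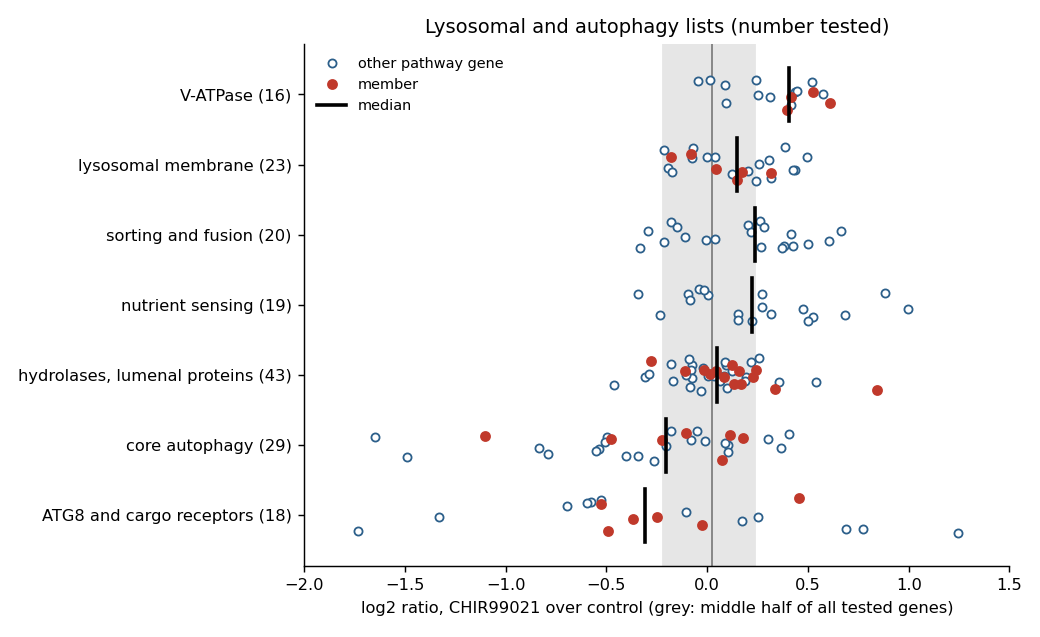
Log2 ratio of every tested gene in 7 lists, members filled and other pathway genes open, with vertical jitter only to separate points. Black bars are list medians and the grey band is the interquartile range of all tested genes (log2 ratio -0.22 to 0.24); the V-ATPase median is 0.41 and the median of ATG8 genes with cargo receptors is -0.31. One gene, Acp5, lies off the axis.

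Autophagy initiation and nucleation held the member with the lowest ratio. Wipi1, a phosphoinositide-binding protein recruited to the forming autophagosome, gave 5126 in control cells and 2303 with CHIR99021 (chr11:109434884-109434943 in mm9, minus strand). The ratio was 0.47, with a log2 ratio of -1.10, error 0.20 and Z-score -3.72. Its other 2 probes, at 363 and 176 in control cells, gave 0.47 and 0.54, so 3 of 3 probes were lower by a similar factor. Ulk1, the kinase that starts autophagy, gave 5346 and 3697, a ratio of 0.72 (Z-score -1.84), at least 1.2-fold lower but outside the criteria. Becn1 and Uvrag, subunits of the class III phosphoinositide 3-kinase complex, had ratios of 1.08 and 1.05. A dim second probe of Uvrag, at 39.1 in control cells, gave 1.76.

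Atg5, Atg7 and Atg12 make up the ubiquitin-like conjugation step. Their signals in control cells were 1726, 813 and 2428, and their ratios were 0.93, 1.13 and 0.86, so none reached 1.2-fold at the scaling used here. Atg12 was at least 1.2-fold lower, at 0.820 to 0.825, under 5 other scalings: the authors' normalized table, cyclic loess, quantile normalization, the percentile over probes detected on both arrays, and signals left unscaled. The second probe of Atg7 gave 0.99.

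The ATG8 proteins, which coat the autophagosome and tether cargo, were all below a ratio of 1 by their brightest probes, and 3 of the 5 were at least 1.2-fold lower beside 22.2% of all tested genes. Map1lc3b, the common autophagosome marker LC3B, gave 11194 in control cells and 7501 with CHIR99021 (chr8:124120787-124120846 in mm9, plus strand), a ratio of 0.70 with a log2 ratio of -0.52, error 0.20 and Z-score -2.23. Its other 2 probes gave 0.74 and 0.77. Gabarapl1 gave 30803 and 21106 (chr6:129492254-129492313 in mm9, plus strand), a ratio of 0.71 (Z-score -2.49), and 0.76 on its other probe. Both genes passed the Z-score and stopped short of the ratio limit, and with quantile normalization or the authors' normalized table both were lower by the criteria, at ratios of 0.65 for Map1lc3b and 0.66 for Gabarapl1.

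Map1lc3a gave 2044 and 1525, a ratio of 0.77, on a single probe in row 375 with 14 on/off spots around it. Gabarapl2 had ratios of 0.84 and 0.81 on its 2 measured probes, and under the 5 settings named for Atg12 its brightest probe was also at least 1.2-fold lower (0.795 to 0.813), which made 4 of 5 ATG8 genes. Gabarap, at 25563 in control cells, had 0.98. A dim second probe of Gabarap, at 27.7 in control cells, gave 1.30. The 5 family members therefore spanned ratios from 0.70 to 0.98.

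Sqstm1 went the other way. It encodes p62, the cargo receptor that ATG8 proteins bind, and gave 41366 in control cells and 54764 with CHIR99021, a ratio of 1.37 with a log2 ratio of 0.46, error 0.20 and Z-score 2.12. Its other 2 probes gave 1.30 and 2.19, so 3 of 3 were higher, and the ratio missed the limit of 1.5. The plot of scaled signals sets Sqstm1 beside Map1lc3b and Gabarapl1.

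**Figure D4:**
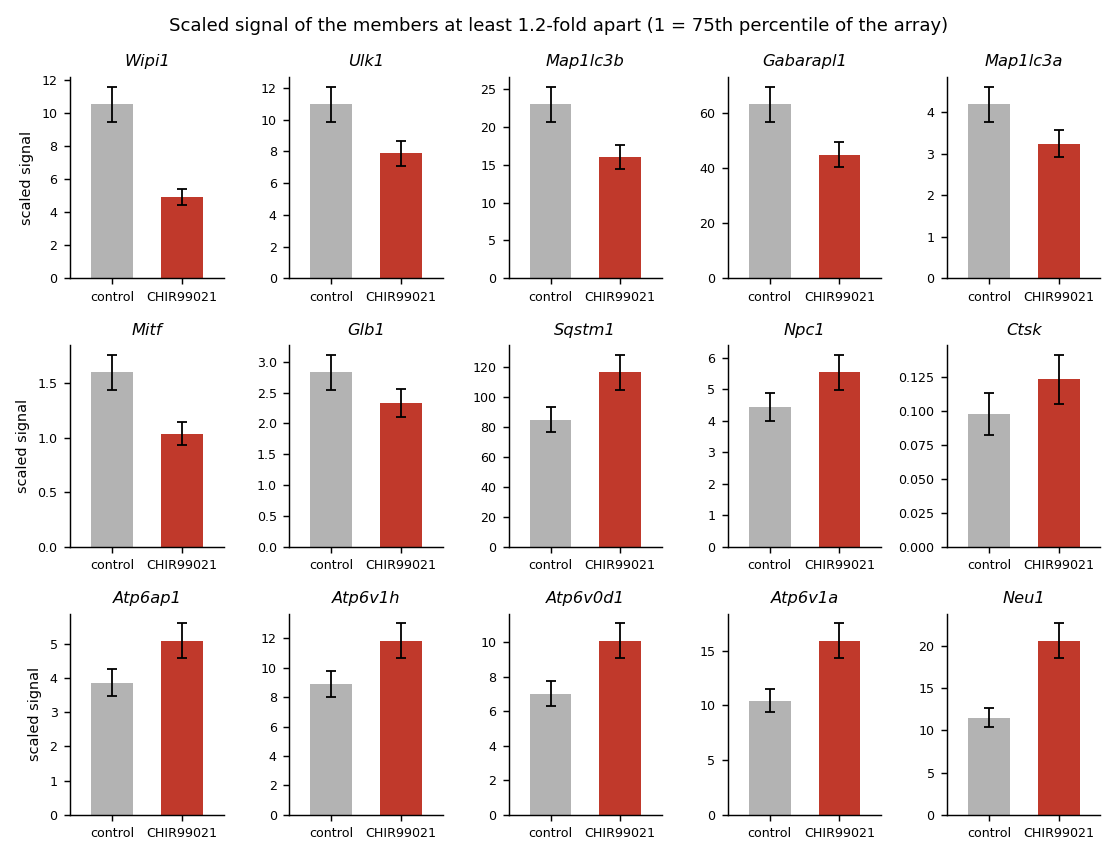
Signal of the 15 members at least 1.2-fold apart, each divided by the 75th percentile of its array, on the control array (grey) and the CHIR99021 array (red), with 1 array each. Every y axis starts at 0 and differs between panels, and error bars are the scanner software's model error, not replicate error; Wipi1 goes from 10.5 to 4.91 and Neu1 from 11.5 to 20.6.

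Core autophagy genes outside the set were more often lower than higher. Of 22 tested, 11 were at least 1.2-fold lower and 3 higher, beside 22.2% and 23.2% of all tested genes, with a median log2 ratio of -0.23. The lower count ranged from 8 to 12 over the 7 scalings and background corrections. By the criteria, 4 were lower (18.2%, beside 3.22% of all tested genes) and 0 higher. The WIPI family member Wdr45, also called WIPI4, gave 2623 in control cells and 807 with CHIR99021, a ratio of 0.32, and 0.34 on its other probe. Its partner Atg2a, a lipid transfer protein, gave 1771 and 957, a ratio of 0.56. In the ULK complex, Atg13 gave 2510 and 862, a ratio of 0.36, and Rb1cc1, also called FIP200, gave 1258 and 702, a ratio of 0.58. Rb1cc1 had 6 probes measured on both arrays, and all 6 were lower, with ratios from 0.45 to 0.58. The highest ratio in the list was that of Atg16l1, the scaffold of the ATG12 conjugate, at 1.33.

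Cargo receptors and mitophagy genes other than Sqstm1 were divided. Of 12 tested, 6 were at least 1.2-fold lower and 3 higher, beside 22.2% and 23.2% of all tested genes. Calcoco1, an ATG8-binding receptor, gave 347 and 101, a ratio of 0.30, and 0.37 on its other probe. Pink1, the kinase that marks damaged mitochondria, gave 1163 and 446, a ratio of 0.40, while its dimmer probe gave 0.75. Bnip3, a mitophagy receptor that hypoxia is known to induce, gave 9356 and 21377, a ratio of 2.37 (Z-score 4.28), and was higher by the criteria. Over the 7 scalings and background corrections the list held 1 to 3 genes higher by the criteria and 2 or 3 lower, and the shares at the scaling used here, 8.33% and 16.7%, stand beside 2.63% and 3.22% of all tested genes.

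**Figure D5:**
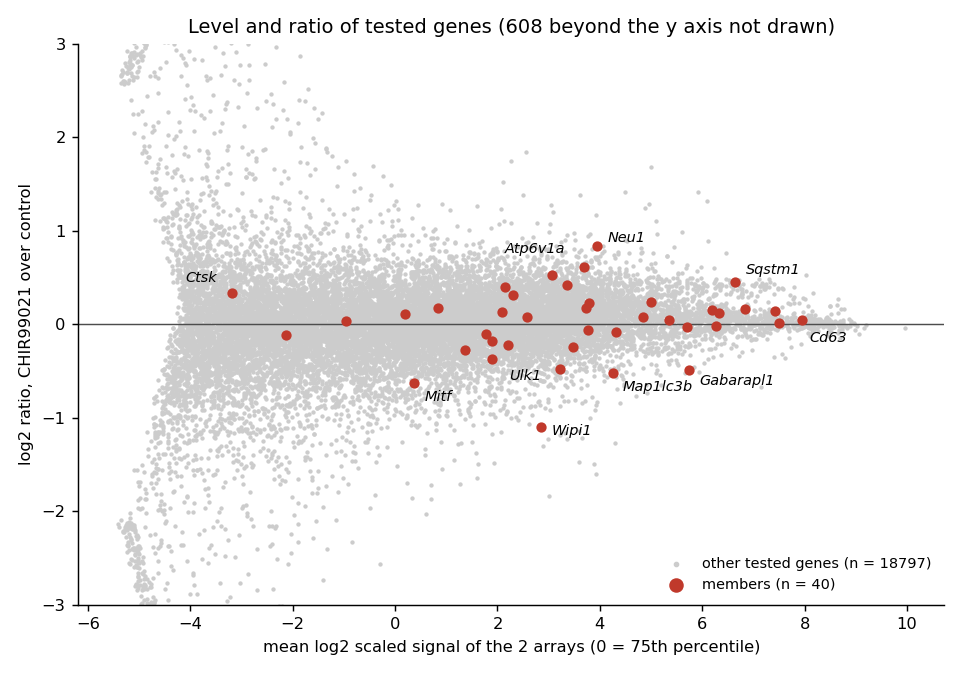
Log2 ratio (y axis) against the mean log2 scaled signal of both arrays (x axis, 0 is the 75th percentile) for 40 members (red) and 18797 other tested genes (grey), with 608 genes beyond the y axis. The grey cloud narrows as the signal rises; Wipi1 lies at its lower edge and Neu1 at its upper edge.

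Among the lumenal glycosidases and lipid-handling proteins, Neu1 stood alone. It encodes the lysosomal sialidase, and gave 5601 in control cells and 9670 with CHIR99021 (chr17:35072105-35072164 in mm9, plus strand), a ratio of 1.79 with a log2 ratio of 0.84, error 0.20 and Z-score 2.49. This rests on a single probe in row 377 of 384, with 4 on/off spots within 3 rows and columns, against a 90th percentile of 5 for tested probes in the later rows. Its pixels varied by 14.2% of their mean on the CHIR99021 array. Whether its place on the array played a part was not tested. Ctsa, the protective protein that holds NEU1 and β-galactosidase in a complex, had a ratio of 1.09. Glb1, that β-galactosidase, gave 1377 and 1095, a ratio of 0.82. Its other 3 measured probes gave 0.82, 0.99 and 0.92, so the 3 genes of the complex did not share a direction.

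The other enzymes and lipid carriers lay within 1.2-fold. Hexa, a β-hexosaminidase subunit, had a ratio of 1.17, Psap, the precursor of the saposins, 1.10, Npc2, which carries cholesterol in the lumen, 1.06, Gla, the α-galactosidase, 1.01, and Gaa, the acid α-glucosidase, 0.99. Gla and Gaa were bright, at 87442 and 37595 in control cells. Among the 29 other hydrolases and cofactors tested, 4 were at least 1.2-fold lower (13.8%) and 2 higher (6.90%), with a median log2 ratio of 0.01. All tested genes had 22.2% lower and 23.2% higher. Genes at or over the 75th percentile signal had 12.9% lower and 20.8% higher. Measured on both arrays, Arsb had the highest ratio, 1.46 at 52.7 in control cells, and Ctsf the lowest, 0.72. Acp5, the tartrate-resistant phosphatase of osteoclasts, gave 267 in control cells and was not well above background with CHIR99021, at least 9.77-fold lower, with 10 on/off spots around it.

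Cathepsins, the proteases of the lumen, differed little. Of the 7 tested, 6 had ratios above 1 (5 or 6 over the 7 scalings and background corrections) and 1 reached 1.2-fold, beside 23.2% of all tested genes. The bright ones were Ctsb (52494 in control cells, ratio 1.12), Ctsa (37641, 1.09), Ctsl (33751, 1.12), Ctsd (19676, 1.03) and Ctsz (14216, 1.18). Ctsl was printed 10 times: its ratio ranged from 1.05 to 1.18 over the spots with a median of 1.12, and its log2 ratio had an SD of 0.04. The unscaled spots of the arrays overlapped, with 35844 the highest in control cells and 33907 the lowest with CHIR99021, and the ratio was 1.04 with quantile normalization. Ctsk, the collagen-degrading cathepsin of osteoclasts, was dim, at 47.5 and 57.7, and its ratio of 1.26 (log2 ratio 0.33) had an error of 0.31 on the log2 scale. Ctsh, at 116 in control cells, had a ratio of 0.93. Of the 5 macrophage and osteoclast markers tested, 3 were measured on both arrays, with ratios from 0.86 to 1.07. Aif1, at 58.8 in control cells, and Acp5 were not well above background with CHIR99021, at least 2.16-fold and 9.77-fold lower, and Acp5 was lower by the criteria. Their part in the cathepsin levels was not tested.

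Lysosomal membrane proteins were close to 1. Cd63, a tetraspanin of late endosomes, was the brightest member at 119281 in control cells, and 10 spots gave ratios from 1.00 to 1.06 with a median of 1.03. Lamp1, an abundant membrane glycoprotein, gave 79082 and 84363, a ratio of 1.11, and 1.14 on its other probe. Lamp2 gave ratios of 0.94, 1.00 and 0.66 on probes at 10024, 2430 and 339 in control cells, so the dimmest differed from the others. Mcoln1, the calcium channel of the lysosome, had a ratio of 1.13, and Scarb2, the receptor that delivers β-glucocerebrosidase, had 0.88 and 1.00 on its probes. Npc1, the cholesterol exporter, gave 2168 and 2600, a ratio of 1.24. Over 10 other scalings, background corrections and filters its ratio ranged from 1.19 to 1.24. Its dimmer probes gave 1.08 and, for one not well above background with CHIR99021, a signal at least 1.64-fold lower. The median log2 ratio of these 6 genes was 0.10, and ranged from -0.01 to 0.10 over the 7 scalings and background corrections, so no common direction can be read.

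The 17 other lysosomal membrane proteins had a median log2 ratio of 0.20, with 6 at least 1.2-fold higher and 0 lower, beside 23.2% and 22.2% of all tested genes. Over the 7 scalings and background corrections, 4 to 6 were at least 1.2-fold higher and 0 or 1 lower. Ctns, the cystine exporter, had the highest ratio, 1.41, and Tpcn1, a cation channel, the lowest, 0.86. Among 20 genes of lysosomal sorting and fusion, 9 were at least 1.2-fold higher and 2 lower, beside the same shares of all tested genes. Their median log2 ratio was 0.24, and over the same 7 settings 7 to 9 were higher and 2 or 3 lower. Vps18, a core subunit of the HOPS tethering complex, gave 1388 and 2121, a ratio of 1.58 (Z-score 1.98), just short of the limit, and Plekhm1, an adaptor that binds HOPS and ATG8 proteins, had the lowest ratio, 0.79.

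Nutrient sensing at the lysosome, where mTORC1 is switched on and TFEB and TFE3 are held in the cytoplasm, held 2 genes higher by the criteria among 19 tested (10.5%, beside 2.63% of all tested genes), with 9 at least 1.2-fold higher and 1 lower, beside 23.2% and 22.2%. With quantile normalization or the authors' normalized table, Fnip2 alone was higher by the criteria. Over the 7 scalings and background corrections, 6 to 9 genes of the list were at least 1.2-fold higher and 0 to 2 lower. Fnip2, a partner of folliculin, gave 573 and 1100, a ratio of 1.99, and 1.87 on its other probe. Lamtor3, part of the Ragulator scaffold, gave 10646 and 16503, a ratio of 1.61, and 1.45 on its other probe. The lowest ratio was 0.79, for Prkaa2, a catalytic subunit of AMPK. Flcn and Rragd, picked after their values were seen because they act with Fnip2, had ratios of 1.41 and 1.84. The latter was at 54.2 in control cells, and a second Rragd probe gave 1.17.

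Probes of the same gene gave a further view of precision. Of the 20 members with at least 2 probes measured on both arrays, 16 had all of them on the same side of 1. The exceptions were Tfeb, Scarb2, Atg7 and Gabarap, each with a ratio between 0.88 and 1.13 on its brightest probe. Over 10 other scalings, background corrections and filters, Wipi1 ranged from 0.44 to 0.48, Neu1 from 1.67 to 1.79, Map1lc3b from 0.65 to 0.70, Gabarapl1 from 0.66 to 0.71, Sqstm1 from 1.28 to 1.37 and Atp6v1a from 1.43 to 1.53. The choice of probe moved some of these further. With the dimmest tested probe Sqstm1 had 2.19, and Atp6v1a rested on the on/off probe described above, as it did in part with the mean over probes (4.28).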

How the data were processed

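Total RNA of mDE6 cells was labelled with Cy3 and hybridised to Agilent arrays with 1 colour. The authors deposited spot intensity from Feature Extraction (10.7.1.1 in the file headers, 9.5.1.1 in the submitters' processing notes), background-subtracted and not normalized between arrays, and a normalized intensity table whose sorted columns were equal, to a relative tolerance of 1e-06, at 99.0% of positions. The methods name a human array, while the headers give a mouse design annotated on mm9.

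Signals were divided by the 75th percentile of their array over spots other than controls, outlier spots were left out, spots of a probe were averaged, and the 28066 of 56605 probes detected on either array (well above background) were tested (Python 3.11.15, numpy 2.4.6, pandas 2.3.3, matplotlib 3.10.9, with limma 3.58.1 in R 4.3.3 for alternatives). The methods' Z-score limit for lower genes was read as negative.

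Members, their 8 roles and the 133 other pathway genes in 7 lists were chosen with earlier results of these data known. All members were named, and of the other pathway genes those that met the criteria and, per list, the highest and lowest ratio measured on both arrays. Flcn and Rragd were named outside this rule, after their values were seen. Without a table of mm9 gene models, probes were not assigned to exons or introns. Protein sequences were not used here.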

Additional observations from a re-analysis of the deposited data

How the results depend on the processing

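The median log2 ratio of the members was 0.0595 and kept its sign under every alternative run. It was 0.0106 with quantile normalization and with the authors' normalized table, 0.0069 with cyclic loess, 0.0066 with no scaling and 0.00774 when the percentile was taken over probes detected on both arrays. Members lower by the criteria were 3 with quantile normalization and the authors' table (Wipi1, Map1lc3b and Gabarapl1), 2 with cyclic loess (Wipi1 and Map1lc3b), 2 with earlier rows only and 2 with no Z-score (Wipi1 and Mitf both times), and 0 for the probe with the lowest signal and the Z-score over all probes. Members higher were 2 for the mean over probes, the probe with the lowest signal and no Z-score (Neu1 and Atp6v1a each time), and 0 for earlier rows only, where Neu1 has no probe, and the Z-score over all probes. Under quantile normalization, cyclic loess, no scaling, the both-array percentile and the authors' table, Atg12 and Gabarapl2 joined the members at least 1.2-fold lower, 9 in place of 7. With normexp there were 6, without Glb1. Members at least 1.2-fold higher were 7 in place of 8, without Npc1, under quantile normalization, cyclic loess, no scaling and the authors' table. With normexp there were also 7 higher, without Ctsk. With the probe of the lowest signal, 10 were higher and 8 lower. Of 29 members with a tested probe in the earlier rows, 5 were at least 1.2-fold lower and 7 higher (17.2% and 24.1%), near the 20.5% and 21.6% of the 10884 genes tested there. Npc1 had a ratio of 0.936 for the mean over probes, which includes a probe not well above background with CHIR99021. With no filter on dim probes the median of all genes was 0.18, a shift of 0.16, and that of the members 0.07. No paired analysis was possible because the study holds 1 control and 1 treated array. The causes of the other differences were not tested. The number of arrays limits every value, and Ctsk, Ctsh and Tfeb were also limited by signals of under 250 units in control cells.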
